A study of Mus musculus with 8 samples.

Results

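The transcripts of 6 inflammatory chemokines (Ccl5, Cxcl10, Ccl2, Cxcl16, Ccl3 and Ccl4) and of 4 NF-κB feedback genes (Nfkbia, Tnfaip3, Nfkb1 and Relb) were followed in RNAseq of S0 cells from E12.5 fetal livers. The 10 genes were taken by symbol from the 52636 gene identifiers of the count table, after the version of each identifier was dropped. S0 cells are the least mature fetal-liver fraction of the sort, negative for CD71 and Ter119 and for a cocktail against lymphoid and myeloid surface proteins. The libraries, 4 labelled WT and 4 labelled DKO, came from mice on the C57BL/6J background. DKO embryos lacked exon 6 of Vps13a, removed in the whole body with β-actin-Cre, and were Vps13c -/-, whereas WT embryos carried neither allele. VPS13A and VPS13C are proteins that carry lipids between membranes at organelle contact sites. The cross that gives DKO embryos cannot give WT littermates, so genotype and litter cannot be told apart, and nothing states that the libraries are separate embryos. The p-values below measure the spread between these libraries, which may be technical in part.

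Chemokines are small secreted proteins that draw leukocytes bearing the matching G-protein-coupled receptors. NF-κB is a family of dimeric transcription factors that inhibitor proteins hold in the cytoplasm until a signal from a cytokine receptor or a nucleic acid sensor leads to degradation of the inhibitor. Many chemokine genes are NF-κB targets, and so are the genes of the inhibitor IκBα, of the deubiquitinase A20 and of several NF-κB subunits, which makes their transcripts a readout of the pathway. Ccl5, Cxcl10 and other chemokine genes also respond to the IRF factors of the interferon response.

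Promoter sequences bear on this because both kinds of factor bind short DNA motifs. RefSeq windows of 250 bases before and 50 after the start were at hand for 4 of the 10 genes, Cxcl10, Nfkbia, Tnfaip3 and Ccl3, on GRCm38.p6. Each was searched on both strands for a loose NF-κB pattern (3 G, any 5 bases, 2 C), for the core of the interferon-stimulated response element (GAAA, any 2 bases, GAAA) and for the TATA box TATAAA, which are held by 50.8%, 3.44% and 13.6% of all 32851 windows. The 250 bases before the start are shown for 3 of these genes, picked with their transcript values known. Ccl3 did not pass the test below, and a link between motifs and transcript levels was not tested. Matches are in capitals, and bases are written 5′ to 3′ on the gene's strand (Cxcl10, chr5:92348890-92349139, minus; Nfkbia, chr12:55492648-55492897, minus; Ccl3, chr11:83649379-83649628, minus).
Cxcl10: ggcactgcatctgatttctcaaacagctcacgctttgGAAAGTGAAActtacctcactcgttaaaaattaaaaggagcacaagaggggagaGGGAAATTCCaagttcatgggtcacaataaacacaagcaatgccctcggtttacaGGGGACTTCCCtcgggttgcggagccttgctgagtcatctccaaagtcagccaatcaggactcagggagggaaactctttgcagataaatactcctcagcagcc
Nfkbia: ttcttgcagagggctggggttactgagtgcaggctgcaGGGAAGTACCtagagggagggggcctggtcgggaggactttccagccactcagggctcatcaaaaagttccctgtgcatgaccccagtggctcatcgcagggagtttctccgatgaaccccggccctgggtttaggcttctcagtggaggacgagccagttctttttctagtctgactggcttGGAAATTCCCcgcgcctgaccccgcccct
Ccl3: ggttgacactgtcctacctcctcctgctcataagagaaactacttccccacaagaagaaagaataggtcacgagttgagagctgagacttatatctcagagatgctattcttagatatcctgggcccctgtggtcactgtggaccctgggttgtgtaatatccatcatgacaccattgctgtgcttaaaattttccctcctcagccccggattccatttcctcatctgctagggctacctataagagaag
Counted from the start, the Cxcl10 window held the element core GAAAGTGAAA at -213 and NF-κB matches GGGAAATTCC at -159, GGGGACTTCC at -104 and GGGACTTCCC at -103, the last pair overlapping. The Nfkbia window held GGGAAGTACC at -212 and GGAAATTCCC, a match on the other strand, at -29, with a TATA box match on the other strand at 19 bases after the start and no element core. The Ccl3 window held none of the 3 motifs. The first Tnfaip3 window held overlapping NF-κB matches between -126 and -114, further ones at -12 and just after the start, and TATAAA at -225, and the window of a second Tnfaip3 start held overlapping NF-κB matches at -90 and -89. These matches describe letters in the windows, and the NF-κB pattern is present in 50.8% of windows of this length.

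Depth ran from 42114489 to 50886469 counts per WT library and from 36981439 to 42587815 per DKO library. Values below are normalised counts, that is, counts scaled to the mean effective library size. The low-count filter of edgeR left 17378 genes, and a gene was called when its edgeR adjusted p (Benjamini-Hochberg) was under 0.05 with a log2 fold change above 1 or below -1. Vps13a fell from 1943 ± 130 normalised counts (WT) to 794 ± 194 (DKO; SD, n = 4 each; log2 fold change -1.29, edgeR adjusted p = 0.00247), whereas Vps13c had 583 ± 74.9 and 816 ± 279 (edgeR adjusted p = 0.182). A count over the whole gene does not show a removed exon, so the Vps13c count does not check that label. Xist exceeded the Y-linked Ddx3y in 0 of 4 WT and 3 of 4 DKO libraries, so sex-linked class and genotype overlap in all libraries but DKO replicate 3. Of 62 replication-dependent histone genes tested, 61 were higher in DKO, by a median of 1.61 on the log2 scale against 0.03 over all genes, a shift whose part in the results below was not tested.

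Ccl5, Cxcl10, Cxcl16 and Relb rose in DKO, by between 5.60-fold and 80.5-fold. Nfkbia rose 1.80-fold and Nfkb1 fell by 0.35 on the log2 scale, both with an adjusted p under 0.05 but within the fold threshold. Ccl3, Ccl4 and Tnfaip3 did not pass the test, and Ccl2 had too few counts to be tested. Of the 9 genes tested, 4 were called higher and 0 lower, where the same rule called 6.19% of all genes tested higher and 2.43% lower. By adjusted p alone, 5 were higher and 1 lower, against 10.7% and 10.8% of all genes. Every DKO library lay above every WT library for 5 of the 9 and below for 1, against 13.5% and 14.6% of all genes. Ccl5 and Cxcl16 passed the low-count filter through the DKO libraries alone, so their place in these counts is a description only. With a term for the sex-linked class, the genotype estimate rests on DKO replicate 3 alone against WT, so only effect sizes are given. Its log2 fold changes were 6.85 for Ccl5, 2.63 for Cxcl10, 2.65 for Relb, 3.01 for Cxcl16 and -0.13 for Nfkb1.

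**Figure D1:**
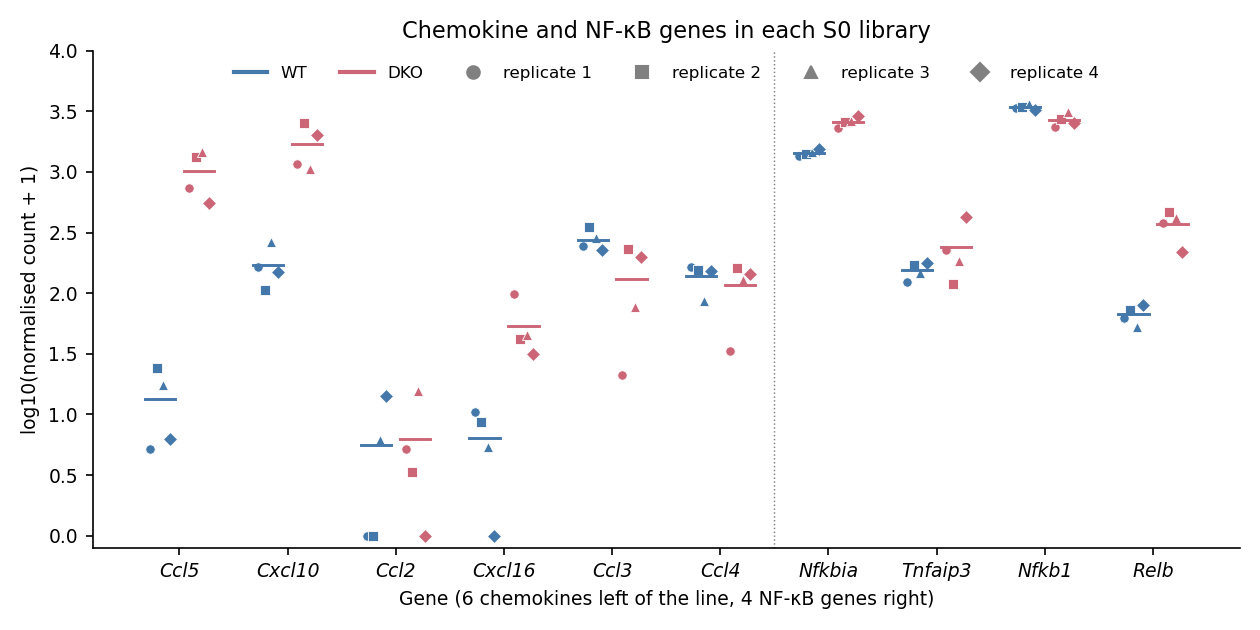
Level of the 10 genes in each library, as log10 of the normalised count plus 1 on the vertical axis, with WT in blue, DKO in red, a marker shape for each replicate number and a bar at the group mean of the normalised counts. The groups are fully separated for Ccl5, Cxcl10, Cxcl16, Nfkbia, Nfkb1 and Relb, Nfkb1 being the gene with DKO below WT.

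Ccl5 (RANTES, which attracts T cells and monocytes; chr11:83525778-83530518, minus) had raw counts of 4, 27, 19 and 6 in WT replicates 1 to 4 and of 702, 1132, 1191 and 529 in DKO replicates 1 to 4. After scaling these were 4.19, 23.2, 16.5 and 5.25 normalised counts in WT and 737.6, 1316, 1454 and 552.7 in DKO. All 4 DKO libraries were far above all 4 WT libraries, where the gene was scarce, with 56 counts in all against 3554. The means were 12.3 ± 9.18 and 1015 ± 437 normalised counts (SD, n = 4 each), or 80.5 times as much in DKO (log2 fold change 6.33, SE 0.58, edgeR adjusted p = 0.000485). By exact permutation of the libraries (two-sided, on log2 CPM), p was 0.0286, the lowest value that 4 against 4 can give. In CPM per kb of exon, the mean level went from 0.292 to 24.1, above 17.1% of the genes tested in WT and above 85.7% in DKO. By p, Ccl5 ranked at place 37 among all genes tested.

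Cxcl10 (IP-10, the interferon-inducible ligand of CXCR3; chr5:92346638-92348889, minus) gave 163, 105, 266 and 148 normalised counts in the WT libraries in order of replicate number. The DKO libraries gave 1170.5, 2541, 1059.7 and 2019. The lowest DKO library was well above the highest WT library, and WT replicate 3 stood highest within its group. Means of 170.5 ± 68.2 and 1697 ± 707 normalised counts (SD, n = 4 each) gave a 9.95-fold rise, a log2 fold change of 3.31 (SE 0.37, edgeR adjusted p = 0.00136, exact permutation p = 0.0286). Unlike Ccl5, Cxcl10 was well covered in WT, with at least 122 counts in each library. The gene shares 133 exon bases with Art3 on the opposite strand, and whether counting used strand is not given in the sources used here. Art3 itself had 20.7 ± 7.72 and 32.7 ± 30.0 normalised counts.

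Cxcl16 (a membrane-bound ligand of CXCR6 that can be shed; chr11:70453983-70459984, minus) had raw counts of 9, 9, 5 and 0 in WT and of 93, 35, 36 and 29 in DKO. In normalised counts the WT libraries had 9.42, 7.75, 4.34 and 0 and the DKO libraries 97.7, 40.7, 43.95 and 30.3. The groups did not overlap, and DKO replicate 1 was the highest library. Summed over libraries there were 23 counts in WT (exact Poisson 95% interval 14.6 to 34.5) and 193 in DKO (167 to 222), intervals that cover counting error only. The log2 fold change was 3.29 (SE 0.88), a 9.76-fold rise with an edgeR adjusted p of 0.0279 (exact permutation p = 0.0286 with n = 4 each). This call was lost without WT replicate 1, 2 or 3 or DKO replicate 1, with edgeR adjusted p between 0.0582 and 0.0721. Cxcl16 shares 552 exon bases with Zmynd15 on the opposite strand, which had at most 13 counts in a library.

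Ccl2 (MCP-1, the main ligand of CCR2 on monocytes; chr11:82035571-82037453, plus) was scarce in both groups, with raw counts of 0, 0, 6 and 15 in WT and of 4, 2, 12 and 0 in DKO. The groups overlapped fully, and each held libraries at 0, a count that allows up to 3. The sums were 21 counts in WT (exact Poisson 95% interval 13.0 to 32.1) and 18 in DKO (10.7 to 28.4). Ccl2 did not pass the low-count filter, and an exact permutation test gave p = 0.83 (n = 4 each). Fitted without the filter, its log2 fold change was 0.18 (edgeR adjusted p = 0.958), so a difference was not detectable at this depth.

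**Figure D2:**
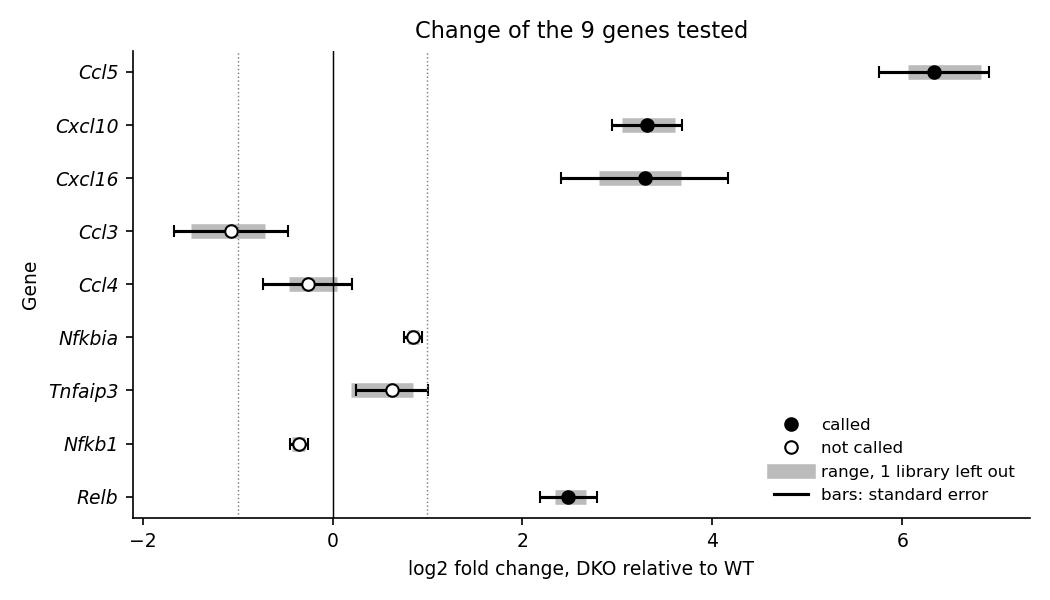
Log2 fold change of DKO relative to WT for the 9 genes tested, with the standard error as black bars and the range over fits that each leave out 1 library in grey. Filled points are called, dotted lines mark the fold threshold, and Ccl5 lies furthest right at 6.33 while Ccl3 lies furthest left at -1.07.

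Ccl3 (MIP-1α, which attracts monocytes and macrophages; chr11:83647844-83649355, minus) gave 244, 349, 282 and 227 normalised counts in the WT libraries and 19.96, 230.15, 75.7 and 198.5 in the DKO libraries. DKO replicates 1, 3 and 4 were below every WT library, and DKO replicate 2 lay just above the lowest WT library. The means were 276 ± 54.2 and 131 ± 99.6 (SD, n = 4 each), and the log2 fold change of -1.07 (SE 0.60) did not pass the test (edgeR adjusted p = 0.231, exact permutation p = 0.0571). Its 95% interval ran from -2.42 to 0.27 on the log2 scale. Spread was the limit here, at a coefficient of variation of 19.7% in WT and 76.0% in DKO.

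Ccl4 (MIP-1β, encoded next to Ccl3; chr11:83662584-83664683, plus) gave 163, 154, 86.0 and 152 normalised counts in WT and 32.6, 159, 128 and 143 in DKO. Apart from the low DKO replicate 1, the DKO libraries lay within the WT range. Means were 139 ± 35.6 and 116 ± 56.9 (SD, n = 4 each), with a log2 fold change of -0.26 (SE 0.47, 95% interval -1.31 to 0.78, edgeR adjusted p = 0.73, exact permutation p = 0.514). Leaving out DKO replicate 1 turned the value to 0.052 on the log2 scale. That library was the lowest of all 8 for both Ccl3 and Ccl4.

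The makeup of the 6 chemokine transcripts differed between the groups when each gene was divided by its exon length. Their total leaves out all other chemokine genes, some of them more abundant, such as Pf4 (25583 normalised counts on average in WT and 40570 in DKO). Ccl3 and Ccl4 together made 77.9% to 90.4% of the 6 transcripts in WT libraries (median 87.0%) and 5.39% to 24.3% in DKO libraries (median 15.2%). Ccl5 and Cxcl10 together made 9.28% to 21.1% in WT (median 11.8%) and 75.2% to 92.0% in DKO (median 83.9%). Neither pair overlapped between the groups. These shares are parts of a single total, so the rises of Ccl5 and Cxcl10 given above lower the share of Ccl3 and Ccl4 by arithmetic. Ccl3 and Ccl4 did not pass the test themselves, so the shares restate those values and are not a separate result. Within the second pair Ccl5 was the larger share in DKO replicates 1, 2 and 3 and Cxcl10 in DKO replicate 4. The summed level of the 6, in CPM per kb, was 13.9 to 17.4 in WT and 31.9 to 69.6 in DKO. Ccl2 and Cxcl16 stayed minor, each at most 2.31% of the total in any library.

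**Figure D3:**
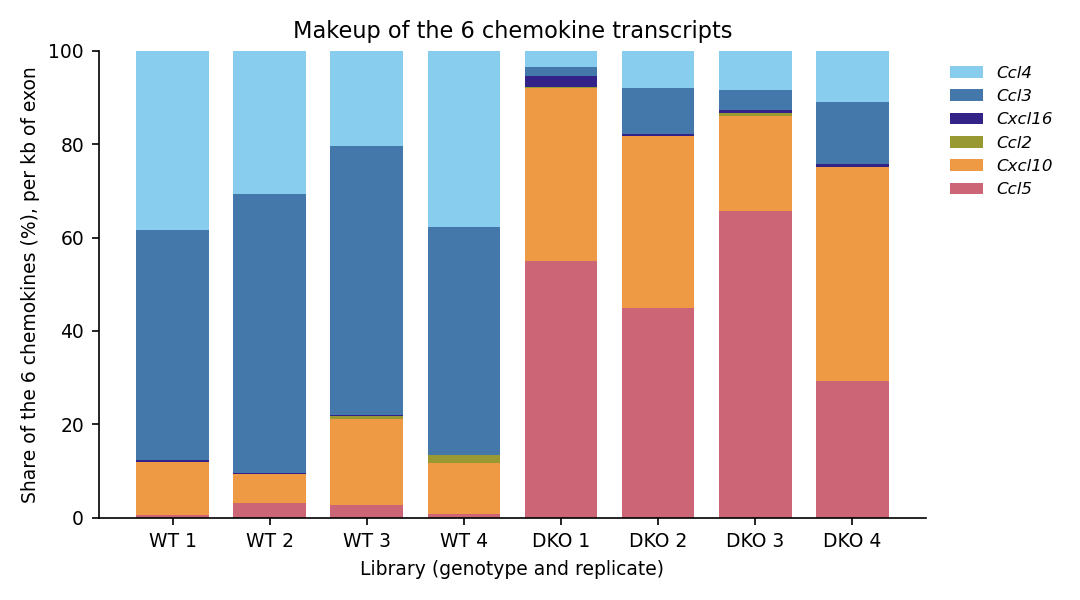
Share of each chemokine in the summed level of the 6 (percent, counts per kb of exon) in each WT and DKO library. Ccl3 and Ccl4 (blue shades) fill 77.9% or more of each WT bar, and Ccl5 and Cxcl10 (red and orange) fill 75.2% or more of each DKO bar.

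Among the inhibitors, Nfkbia, which encodes IκBα (chr12:55489410-55492647, minus), had 1349.8, 1413, 1471 and 1541 normalised counts in WT. The DKO libraries had 2283, 2597, 2618 and 2886. The groups did not overlap, DKO being higher, and libraries of one genotype were close together, with coefficients of variation of 5.65% and 9.50%. From 1444 ± 81.6 to 2596 ± 247 (SD, n = 4 each), the rise was 1.80-fold, a log2 fold change of 0.85 (SE 0.10, edgeR adjusted p = 0.00143, exact permutation p = 0.0286). The change was below the fold threshold, although Nfkbia ranked at place 84 by p among all genes tested. In CPM per kb of exon it was the most abundant of the 10 genes in both groups, at 20.4 in WT and 36.7 in DKO.

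Tnfaip3 (chr10:19000910-19015657, minus), the gene of A20, which removes ubiquitin chains from signalling proteins upstream of NF-κB, did not separate the groups. It gave 122.5, 171, 145 and 177 normalised counts in WT and 228, 117, 184 and 423 in DKO. DKO replicates 1, 3 and 4 lay above every WT library, whereas DKO replicate 2 lay below all of them. Means were 154 ± 25.3 and 238 ± 131 (SD, n = 4 each), with a log2 fold change of 0.63 (SE 0.38, 95% interval -0.22 to 1.48, edgeR adjusted p = 0.268, exact permutation p = 0.286). Leaving out 1 library moved the value between 0.20 and 0.85.

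Of the subunits, Relb (chr7:19606217-19629438, minus), the partner of p52 in the alternative pathway, gave 61.8, 71.4, 51.3 and 79.6 normalised counts in WT and 375, 469.6, 416 and 219 in DKO. All DKO libraries were above all WT libraries, DKO replicate 4 being the lowest of its group. Means of 66.0 ± 12.2 and 370 ± 108 (SD, n = 4 each) gave a 5.60-fold rise, a log2 fold change of 2.48 (SE 0.30, edgeR adjusted p = 0.00197, exact permutation p = 0.0286). In CPM per kb of exon its level went from 0.387 to 2.17, so it stayed below Nfkbia and Nfkb1 in both groups.

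Nfkb1 (chr3:135584655-135691547, minus), the gene of p105 and p50, moved the other way. It had 3389.8, 3403, 3649 and 3247 normalised counts in WT and 2363, 2709.5, 3121 and 2542 in DKO. The groups did not overlap, DKO being lower, the nearest pair being DKO replicate 3 and WT replicate 4. Means were 3422 ± 167 and 2684 ± 324 (SD, n = 4 each), with a log2 fold change of -0.35 (SE 0.10, edgeR adjusted p = 0.0321, exact permutation p = 0.0286). The edgeR adjusted p was above 0.05 in 7 of the 8 fits that left out 1 library, and upper-quartile scaling gave 0.0967.

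The other genes of the pathway and the receptors were taken from lists, shown as counts and medians beside the log2 median of 0.03 over all genes and the 6.19% of all genes called higher and 2.43% called lower. Of 32 other chemokine genes, 14 were tested (median log2 fold change 0.64), and 2 were called higher and 1 lower. Ccl20, a ligand of CCR6, went from 2.49 ± 3.46 to 96.7 ± 33.3 normalised counts (SD, n = 4 each; log2 fold change 5.27, edgeR adjusted p = 0.00791), and Cxcl1, a neutrophil attractant, from 11.2 ± 6.65 to 97.7 ± 60.4 (3.11, edgeR adjusted p = 0.0198). Ccl20 had at most 7 counts in a WT library and passed the low-count filter through the DKO libraries alone, so its call is a description only. Cxcl1 had as few as 2 counts in a WT library and passed the low-count filter only with the DKO libraries, so its call is also a description only. The Cxcl1 call was lost without WT replicate 1 or WT replicate 4. With the sex-linked term, which compares DKO replicate 3 alone with WT, its log2 fold change was 1.12. Ccl9 fell from 2364 ± 297 to 545 ± 295 (log2 fold change -2.12, edgeR adjusted p = 0.00619). For Ccl9 and Ccl20 too, sex-linked class and genotype cannot be told apart with these libraries. Cxcl13 had 8.05 ± 8.95 and 176 ± 296 and did not pass the test (edgeR adjusted p = 0.0824), with 589 of its 666 DKO counts in replicate 1. The 18 genes not tested had at most 44 counts in a library, and 6 of them had none.

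Of 23 chemokine receptor genes, 15 were tested (median log2 fold change -1.25), and 2 were called higher and 5 lower. With 1 library left out, 1 to 3 were called higher and 2 to 5 lower, the lowest counts being those without WT replicate 1, without WT replicate 2 and without WT replicate 4. Cxcr3, whose product binds CXCL10, was lower (61.3 ± 33.5 and 2.62 ± 5.23 normalised counts, SD, n = 4 each; log2 fold change -4.51, edgeR adjusted p = 0.029), with 9 counts in all in DKO. It passed the low-count filter through the WT libraries alone, and its call was lost in 5 of 8 fits with 1 library left out (each WT library and DKO replicate 4), over which its log2 fold change ran from -8.97 to -4.07. Ccr2, the receptor of CCL2, had 873 ± 244 and 367 ± 244 (edgeR adjusted p = 0.137), and Cxcr6 had 37.4 ± 11.6 and 22.2 ± 2.87 (edgeR adjusted p = 0.269). Cxcr2, the neutrophil receptor, fell from 721 ± 84.7 to 184 ± 60.3 (log2 fold change -1.97, edgeR adjusted p = 0.00219), and Ccr7 from 89.5 ± 22.0 to 15.4 ± 10.8 (-2.53, edgeR adjusted p = 0.0145). Ccr7 had as few as 5 counts in a DKO library and passed the low-count filter only with the WT libraries, so its call, like that of Cxcr3, is a description only. The remaining genes called lower were Cx3cr1 and Ccr1, named after their values were seen, with calls lost in 3 and 6 of the 8 fits with 1 library left out. Xcr1 (log2 fold change 2.40, edgeR adjusted p = 0.0127) and Ackr3 (2.24, edgeR adjusted p = 0.0191) rose, and the Ackr3 call was lost without WT replicate 1, 2 or 4. Xcr1 had as few as 7 counts in a WT library and passed the low-count filter only with the DKO libraries, so its call is a description only.

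Of 27 genes of the signalling machinery that leads to NF-κB (median log2 fold change -0.21), 0 were called. By edgeR adjusted p alone 7 were lower and 2 higher, against 10.8% and 10.7% of all genes. The adaptor Mavs (-0.81, edgeR adjusted p = 0.00346), the deubiquitinase Cyld (-0.67, 0.0103), the kinase Tbk1 (-0.64, 0.0114) and the ubiquitin ligase Traf6 (-0.55, 0.0185) had the smallest p and were lower in DKO. The higher ones were Otulin and Chuk, named after their values were seen. With 1 library left out, the edgeR adjusted p was above 0.05 in 5 of 8 fits for Otulin, 6 for Chuk and 2 for Traf6. Rela, the main activating subunit, had 2863 ± 238 and 2350 ± 203 normalised counts (SD, n = 4 each; log2 fold change -0.28, edgeR adjusted p = 0.0605).

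Of 35 other NF-κB targets, 31 were tested (median log2 fold change 0.26), and 1 was called higher and 1 lower, near the shares over all genes. With 1 library left out, 0 to 2 were called in either direction. Ltb, the gene of lymphotoxin β, rose from 417 ± 62.2 to 897 ± 382 normalised counts (SD, n = 4 each; log2 fold change 1.10, edgeR adjusted p = 0.0349), a call lost in 7 of the 8 fits with 1 library left out. Rel, a subunit gene named after its value was seen, fell from 462 ± 144 to 182 ± 115 (log2 fold change -1.35, edgeR adjusted p = 0.0488), a call also lost in 7 of these 8 fits. Tnfaip2 (0.79, edgeR adjusted p = 0.00336) and Gadd45b (0.82, 0.0448) were higher and Bcl2l1 (-0.54, 0.0437) lower by adjusted p alone, but for Gadd45b and Bcl2l1 the edgeR adjusted p was above 0.05 in 7 of the 8 fits with 1 library left out. The cytokine genes Tnf (42.5 ± 27.0 and 66.1 ± 46.5, edgeR adjusted p = 0.54) and Il1b (41.0 ± 18.2 and 31.4 ± 15.5, edgeR adjusted p = 0.663) did not pass the test.

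Set beside these, 7 of 10 interferon-stimulated genes were called higher and 0 lower (median log2 fold change 3.06). Rsad2 (log2 fold change 3.61, edgeR adjusted p = 0.000105), Oas1a (3.40, 0.000159), Ifit1 (5.5, 0.000343) and Isg15 (5.24, 0.000346) had the smallest p. None of 21 interferon genes had enough counts to be tested. For 16 of them the count was 0 in every library and the highest count of any was 17. Ifnb1 had 0 counts in 7 libraries and 14 in DKO replicate 3.

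**Figure D4:**
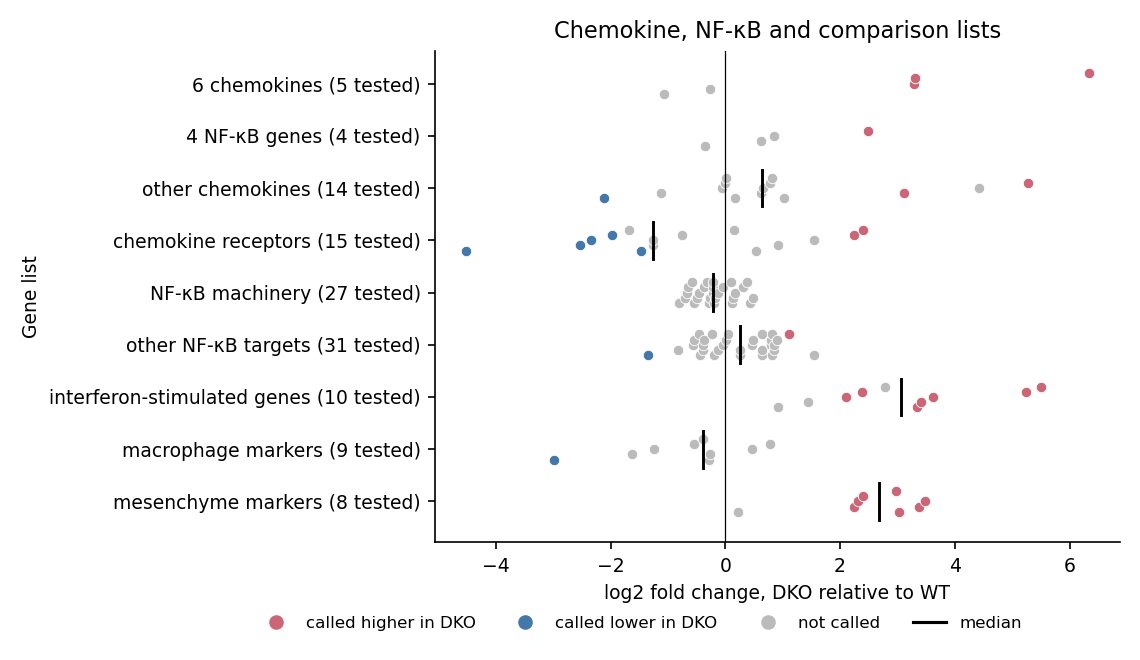
Log2 fold change (DKO relative to WT) of each tested gene, by list, with genes called higher in red, called lower in blue and the list median as a black bar, except for the 10 genes of interest. Interferon-stimulated genes have a median of 3.06 and other NF-κB targets one of 0.26.

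Summed markers of several other cell types differed between genotypes in these bulk libraries, although most single markers were not called, and fewer cells of a type and less RNA per cell cannot be told apart. The erythroid regulators were present, Klf1 at 12312 ± 1724 and 12795 ± 3376 normalised counts (SD, n = 4 each) and Gata1 at 8818 ± 1020 and 8235 ± 1820, and 0 of 11 erythroid markers were called. Summed macrophage markers were 2469 to 3407 normalised counts in WT and 689 to 1627 in DKO, with 1 of 9 tested called lower (Adgre1) and Cd163 at 0 in all libraries. That count was 0 to 2 with 1 library left out (0 without any 1 of the WT libraries or without DKO replicate 2), and Csf1r made up most of the sum (2196 and 711 normalised counts on average, edgeR adjusted p = 0.0961). Adgre1 passed the low-count filter only with the WT libraries, so its call is a description only. C1qa (log2 fold change 0.78, edgeR adjusted p = 0.757) and C1qc (0.47, 0.826) were higher in DKO without passing the test. Granulocyte markers summed to 101537 to 132254 in WT and 5311 to 44779 in DKO, with 3 of 7 tested called lower (Mpo, Elane and Ctsg) and Ly6g at 0. Mpo made up most of the sum (108147 and 22998 on average). Called or not, 5 of the 7 were lower in DKO. The other 2, S100a8 (log2 fold change 1.45, edgeR adjusted p = 0.235) and S100a9 (0.16, 0.948), were higher without passing the test. Lymphoid and NK markers summed to 1606 to 1905 and 293 to 1019, with 1 of 5 tested called lower (Nkg7) and Ncr1 at 0. Dendritic markers summed to 3070 to 3809 and 1244 to 2553, with 2 of 6 tested called lower (Flt3 and Siglech). Of these 6, 3 were lower and 3 higher in DKO, so the lower sum is not shared by the whole list. Flt3 made up most of that sum in WT (2320 and 419.9 on average). Siglech was at 0 in all DKO libraries and passed the low-count filter through the WT libraries alone, so its call is a description only. H2-Ab1 was higher by adjusted p alone (log2 fold change 0.90, edgeR adjusted p = 0.0464). Cd74 (0.62, edgeR adjusted p = 0.326) and Zbtb46 (0.39, 0.118) were higher without passing the test. Sums of all 4 of these leukocyte lists were lowest in DKO replicate 1, the library lowest for Ccl3 and Ccl4. Single macrophage markers were split in that library. Csf1r (62.0 normalised counts) and Marco (0) were lowest of all libraries there. C1qa (83.0), C1qb (128), C1qc (79.9) and Mrc1 (87.2) were highest of all libraries there. A link of these markers to Ccl3 and Ccl4 was not tested.

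Mesenchyme markers, such as the collagen gene Col1a2 and Pdgfra, went the other way, with 7 of 8 called higher and sums of 2041 to 5769 in WT and 12996 to 45108 in DKO, highest in DKO replicate 1, the library highest for Cxcl16. Endothelial markers summed to 2935 to 3786 in WT and 1912 to 2204 in DKO, with 1 of 8 called lower (Pecam1). Pecam1 was the largest part of that sum (1673 and 760 normalised counts on average). Called or not, 7 of the 8 were lower in DKO, but none besides Pecam1 had an edgeR adjusted p under 0.05. Hepatoblast markers (436090 to 608661 and 145440 to 528283) and megakaryocyte markers (49067 to 55719 and 37266 to 114548) had overlapping sums and none called. Among hepatoblast markers, Alb, Apoa1 and Ttr had all 4 DKO libraries below every WT library, as did 14.6% of all genes. Their log2 fold changes were -1.05, -1.02 and -0.90 (edgeR adjusted p = 0.0627, 0.0664 and 0.082). Afp, Dlk1 and Hnf4a overlapped between the groups. The part of these markers in the levels of the 10 genes was not tested. Cxcl10, Nfkbia and Relb kept their direction and an edgeR adjusted p under 0.05 without DKO replicate 1 and in each of the other fits with 1 library left out. Ccl5 did so too, as a description only, since it passed the low-count filter through the DKO libraries alone.

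The patterns most like those of Ccl5 and Nfkbia were looked for by Pearson's r of log2 CPM over the 8 libraries, which split by genotype, so r is given only as a description. For Ccl5 these were Rps27 (r = 0.993), Rnu12, Gm23849, Gm29773 and Phpt1. For Nfkbia these were Plpp4 (r = 0.991), Pck2, Gm13339, Gm8210 and Rabac1.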

How the data were processed

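S0 cells were profiled in 4 WT and 4 DKO libraries, grouped by their titles. The authors trimmed reads with fastp 0.21.0, mapped them to mm10 with HISAT2 2.2.1, removed alignments of low mapping quality and deposited gene counts made with StringTie 1.3.3b and prepDE, which derives whole numbers from coverage. These deposited counts were neither normalised nor pooled. Of 52636 identifiers, 52403 matched a GENCODE symbol of GRCm38 with the version ignored. The strand setting is not given in the sources used here.

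The counts were filtered with filterByExpr and scaled by TMM in edgeR 4.0.16 (R 4.3.3, limma 3.58.1). Genotypes were compared by its robust quasi-likelihood test without covariates, and p-values were adjusted over all genes tested after Benjamini and Hochberg. Exact two-sided permutation tests used log2 CPM with 0.5 added to normalised counts. The steps were tested on simulated data. From each list at most 4 genes with the smallest p were named, plus Rela, Tnf, Il1b, Ifnb1, Cxcr3, Ccr2 and Cxcr6, and 1 further gene of that rule is not reported here. The members and lists were chosen with earlier results of these data known. Replicate numbers did not pair the libraries. Alternatives were DESeq2 1.42.0, other scalings and filters, a replicate block, a sex-linked term, and each library left out. The other experiments of the study were not analysed here.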

Additional observations from a re-analysis of the deposited data

Results flagged for a closer look

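Ccl4 in WT was the single result of 20 groups of 4 libraries (10 genes in 2 genotypes) in which 1 library stood apart from the other three by Dixon's test. WT replicate 3 had 86.0 normalised counts, below 152, 154 and 163 in the other WT libraries, and its gap to the nearest was 0.855 of the group's range, above Dixon's 95% limit for 4 values. Chance alone gives about 1 such group in 20.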

How the results depend on the processing

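Cxcl10 and Relb were called in each alternative other than the sex-linked term. Ccl5 was called in each of these in which it was tested, a description only because it passed the low-count filter through the DKO libraries alone. The sex-linked term compares DKO replicate 3 alone with WT, so no calls of single genes are given for it. With at least 10 counts in every library, 2 of the 10 genes were called higher, because Ccl5, Cxcl16 and Ccl2 were not tested there. Leaving out 1 library gave 3 to 4 called higher and 0 lower. By adjusted p alone 1 was lower, Nfkb1. Over all genes, 1651 were called higher with DESeq2, 613 with the replicate block, 273 with a term for the sex-linked class, 1867 by adjusted p alone, and 566 to 1148 with 1 library left out, against 1076. Genes called lower were 1878 by adjusted p alone and 243 to 521 with 1 library left out, against 423. The count with the sex-linked term rests on DKO replicate 3 alone against WT, so it does not measure how stable the calls are. The DESeq2 count was taken over 30070 genes tested, against 17378 in the main fit, so these 2 counts are not directly comparable. The cause of the other changes was not tested.

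The replicate numbers did not pair the libraries, since deviations of same-numbered libraries correlated between -0.0772 and 0.0336 and 0 numbers correlated best with their own. Under the replicate block the edgeR adjusted p was 0.0501 for Cxcl16 and 0.0521 for Nfkb1. With the sex-linked term, which sets DKO replicate 3 alone against WT, Ccl5 (6.85), Cxcl10 (2.63), Relb (2.65) and Nfkbia (0.86) kept their log2 direction. Cxcl16 (3.01) and Nfkb1 (-0.13) kept theirs too. In that comparison the log2 value was -6.04 for Cxcl13, which had 0 counts in DKO replicate 3, and 0.021 for Il1b. Leaving out DKO replicate 1 turned Ccl4 to 0.052, in a range of -0.46 to 0.052 with 1 library left out. Upper-quartile scaling moved the median of all genes by 0.11 (log2) and gave Nfkb1 an adjusted p of 0.0967. Depth limits Ccl2 and the WT levels of Ccl5 and Cxcl16, and the spread between libraries limits Ccl3, Ccl4 and Tnfaip3.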
